A study of Rattus norvegicus with 4 samples.

Results

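Mgmt, which encodes the DNA repair methyltransferase O6-methylguanine-DNA methyltransferase, is described here with 9 genes of base excision repair: Mpg, Ogg1, Ung, Neil1, Nthl1, Apex1, Polb, Xrcc1 and Parp1. The members were chosen by symbol, as every probe set that the platform annotation maps to one of these symbols and to no other. This gave 13 probe sets for 10 of the 14217 genes that the array names in this way, and 0 probe sets that named a member together with another gene. The tissue was the ventral prostate lobe of male rats of the inbred laboratory strain F344, treated at an age of 6 weeks. The PhIP group was given 300 mg/kg of the cooked-meat heterocyclic amine 2-amino-1-methyl-6-phenylimidazo[4,5-b]pyridine, abbreviated PhIP, and the control group was not, with no vehicle named in the labels. Rats of both groups were killed after 2 days. Each group held 4 rats, mixed 2 to an array, so PhIP 1, PhIP 2, control 1 and control 2 are pools and n is 2 arrays a group. The values are MAS5 signals, the linear brightness of a probe set as computed by the Affymetrix software. Mgmt was singled out because its signal differed between PhIP and control in these arrays. The contrast of PhIP with control is therefore given for the members as a description, with no test.

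Mgmt repairs guanines that carry an alkyl group on the O6 atom by moving that group to a cysteine of its own protein, which is used up in the reaction. Base excision repair handles small base lesions in steps: a glycosylase cuts out the damaged base, an endonuclease opens the strand at the empty site, and a polymerase and a ligase fill and close the gap. PhIP, once activated, forms bulky adducts on guanine, which are known mainly as substrates of nucleotide excision repair.

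Promoter windows of 300 bases, running from 250 bases before the start site to 50 bases after it, were found for 9 of the 10 members in the RefSeq table of build GRCr8. The missing one was Polb. The windows of Mgmt, Ung and Parp1 are shown because Mgmt stands apart in signal while Ung and Parp1 hold both marked letter patterns too and had similar signals in both groups. Capitals mark GGGCGG (the GC box, bound by Sp1) and GCGTG (the core of sites bound by the aryl hydrocarbon receptor), each searched on both strands, so that CCGCCC and CACGC are marked too.
Mgmt, chr1:201140582-201140881, plus strand: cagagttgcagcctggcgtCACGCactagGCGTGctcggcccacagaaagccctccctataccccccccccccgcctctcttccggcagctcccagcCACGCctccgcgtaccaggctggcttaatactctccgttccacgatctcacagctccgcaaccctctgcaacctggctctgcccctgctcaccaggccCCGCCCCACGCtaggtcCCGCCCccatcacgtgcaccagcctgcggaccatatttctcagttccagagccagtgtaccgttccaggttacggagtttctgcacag
Ung, chr12:48153996-48154295, minus strand: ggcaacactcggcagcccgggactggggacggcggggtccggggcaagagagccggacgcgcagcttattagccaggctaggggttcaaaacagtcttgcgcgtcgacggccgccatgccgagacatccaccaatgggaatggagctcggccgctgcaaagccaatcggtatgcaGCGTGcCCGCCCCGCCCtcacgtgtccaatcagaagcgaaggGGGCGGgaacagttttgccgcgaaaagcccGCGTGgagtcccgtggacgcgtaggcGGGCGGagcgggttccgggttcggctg
Parp1, chr13:94839234-94839533, plus strand: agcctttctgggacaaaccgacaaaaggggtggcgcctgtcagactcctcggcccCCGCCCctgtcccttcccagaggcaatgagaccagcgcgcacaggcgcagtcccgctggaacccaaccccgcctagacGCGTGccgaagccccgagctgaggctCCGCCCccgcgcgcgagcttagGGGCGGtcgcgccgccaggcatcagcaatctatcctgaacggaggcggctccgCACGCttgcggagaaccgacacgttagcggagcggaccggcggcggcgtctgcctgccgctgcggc
The Mgmt window held GGGCGG 2 times and GCGTG 4 times, with no overlap between the patterns. The Ung window held them 4 and 2 times, and the Parp1 window 3 and 2 times. GGGCGG was in 7 of the 9 member windows and in 33.1% of all 33469 windows of the table. GCGTG was in 6 of the 9 and in 29.7% of all windows. The CCAAT box (CCAAT) was in 4 of the 9 and in 37.5% of all windows. An E2F site (TTTCCCGC, TTTGGCGC, TTTCGCGC or TTTGCCGC, on either strand) was in 2 of the 9, those of Ung and Nthl1, and in 2.14% of all windows. A p53 half-site was in the Neil1 window alone among the 9, against 7.98% of all windows. TATAAA was in 0 of the 9 and in 14.2% of all windows. The member windows held 12 to 37 CG dinucleotides, against a median of 7 over all windows. Such matches are letters in a window and not binding sites. Over the gene body, Mgmt spans 226650 bases in the same RefSeq table, against 2185 to 31812 bases for the other 9 members.

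Before the member values, the arrays themselves were compared. The log2 values of the tested probe sets correlated at r = 0.987 between PhIP 1 and PhIP 2 and at 0.972 between control 1 and control 2. Control 1 correlated more highly with PhIP 1 (0.980) and PhIP 2 (0.979) than with control 2. The correlation of control 2 was 0.967 with PhIP 1 and 0.964 with PhIP 2. Control 2 stood apart: its ratio of 3′ to 5′ signal, which is higher when RNA is less intact, was 5.71 for actin and 2.06 for Gapdh, against 3.49 to 4.18 and 1.34 to 1.45 on the other 3 arrays. The lowest and highest fold changes with an array left out are given for a named gene, by its brightest probe set, where they differ from the value over all arrays by more than 1.5 times. Added hybridization control transcripts averaged 0.23 lower in PhIP on the log2 scale. Over all tested probe sets, the median log2 fold change was 0.18 once arrays were scaled to these transcripts and 0.11 once each array was centred on its median, against −0.03 in the deposited scaling. The luminal epithelial markers, 10 of 12 on the array and 0 of them at a signal of 0, summed to 38432 and 39485 in PhIP and to 37063 and 35472 in control.

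Mgmt had a signal of 252.9 in PhIP 1 and 240.4 in PhIP 2, against 105.2 in control 1 and 123 in control 2 (probe set 1368311_at, the only one for the gene). Both PhIP pools lay above both control pools, and the gap between the groups was wider than the gap within either. The mean was 246.65 ± 8.84 in PhIP and 114.1 ± 12.6 in control (SD, n = 2 each), a ratio of 2.16. Over the 4 pairings of a PhIP array with a control array, the ratio ran between 1.95 and 2.40. As a log2 fold change of signal + 10, used for all fold changes below, this was 1.05 ± 0.14 (SE of the limma fit). It was 1.16 without control 2 and 0.95 without control 1. Of the 18625 tested probe sets, 58 (0.311%) had a log2 fold change at least as high as that of Mgmt, itself included. Because Mgmt was singled out for this difference, the share only describes its place and is not a test. In whole tissue, more cells that express a gene and more RNA per cell cannot be told apart.

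**Figure D1:**
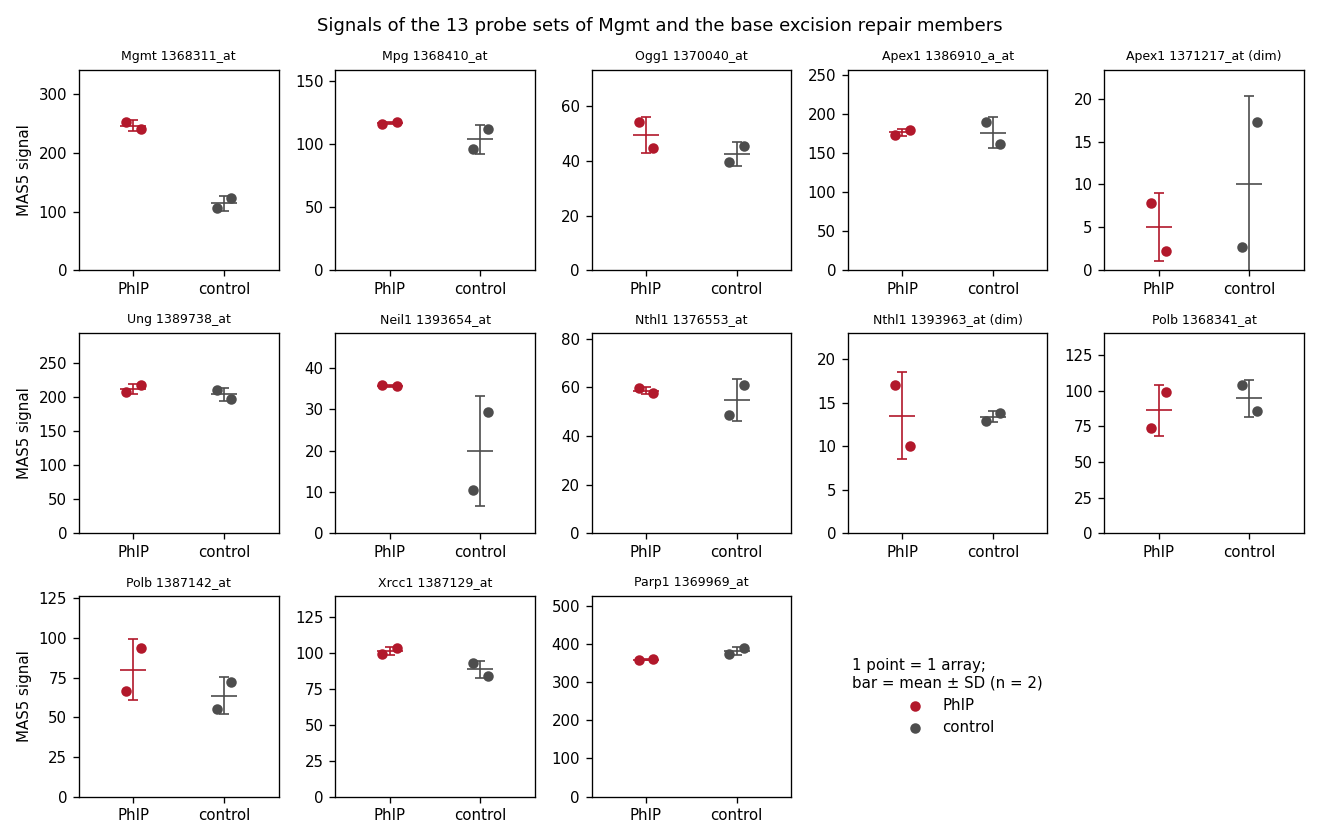
MAS5 signal (vertical axes, linear from 0, each with its own scale) of the 13 member probe sets on the PhIP arrays (red) and the control arrays (grey). Points are arrays and bars are the mean ± SD of 2 arrays. For Mgmt the PhIP arrays sit at 252.9 and 240.4 and the control arrays at 105.2 and 123. Of the other 12 probe sets, 8 overlap between the groups, 2 of them too dim to be tested. Among all tested probe sets, the groups did not overlap for 45.8%.

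The glycosylases cut out different kinds of damaged base. Mpg, which removes alkylated purines such as 3-methyladenine, had signals of 116 and 117.3 in PhIP and 95.5 and 111.5 in control. The groups did not overlap, but the control arrays differed from each other by more than control 2 differed from PhIP, and the log2 fold change was 0.16 ± 0.15. It was 0.06 without control 1 and 0.26 without control 2. Ung, which removes uracil from DNA, had 207.2 and 218 in PhIP and 211.4 and 197.5 in control (0.05 ± 0.12, with 0.0074 without control 2 and 0.10 without control 1). Its 4 arrays lay close together and the groups overlapped. Ogg1, which removes 8-oxoguanine, had 54.3 and 44.9 in PhIP and 39.5 and 45.6 in control (0.18 ± 0.19), also with overlap. Its log2 fold change was 0.07 without PhIP 1 and 0.29 without PhIP 2.

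Nthl1 and Neil1 remove oxidised pyrimidines. Nthl1 had 59.6 and 57.6 in PhIP and 48.8 and 60.9 in control in its brighter probe set 1376553_at (0.09 ± 0.18), both PhIP arrays lying between the control arrays. Without control 1 its sign turned (−0.05), and without control 2 it was 0.22. Its other probe set, 1393963_at, was too dim to be tested, at 17 and 10 in PhIP and 12.9 and 13.8 in control. Neil1 was dim and had the next highest log2 fold change after Mgmt, with 35.8 and 35.5 in PhIP and 10.5 and 29.2 in control. The groups did not overlap, but the control arrays lay much farther apart than control 2 and the PhIP arrays. The log2 fold change was 0.69 ± 0.32, which became 0.22 without control 1 and 1.15 without control 2.

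The enzymes that act after the glycosylases gave small differences in both directions. Apex1, the main endonuclease at sites that have lost their base, had 172.7 and 179.8 in PhIP and 189.8 and 161.8 in control in probe set 1386910_a_at (0.0073 ± 0.14). The PhIP arrays lay between the control arrays, and the sign turned after cyclic loess normalization (−0.00049), without control 2 (−0.10) and without PhIP 2 (−0.02), while it was 0.12 without control 1. A second Apex1 probe set, 1371217_at, was not tested because it was dim, at 7.8 and 2.2 in PhIP and 2.7 and 17.3 in control. Polb, the gap-filling DNA polymerase beta, had 73.7 and 99 in PhIP and 104 and 85.5 in control in probe set 1368341_at (−0.13 ± 0.19). In its other probe set, 1387142_at, it had 66.7 and 93.5 in PhIP and 55.3 and 72.1 in control (0.28 ± 0.21). The 2 Polb probe sets thus differed in sign, and in each the groups overlapped. The sign of the brighter one, 1368341_at, turned without PhIP 1 (0.06) and without control 1 (0.00024). It stood at −0.32 without PhIP 2 and at −0.26 without control 2. The mean of both probe sets gave 0.08.

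Xrcc1, the scaffold that holds the ligation complex together, had 99.4 and 103.5 in PhIP and 93 and 84.4 in control (0.18 ± 0.15). The groups did not overlap, with a log2 fold change of 0.11 without control 2 and 0.24 without control 1. Parp1, the enzyme that senses strand breaks and makes poly(ADP-ribose), had 357.9 and 359.1 in PhIP and 373.4 and 388.1 in control. Both PhIP arrays were lower (−0.08 ± 0.11), and the sign turned with the scaling, to 0.14 with arrays scaled to the hybridization controls and 0.05 with arrays centred on their medians. The same 2 scalings turned the sign of the brighter Polb probe set.

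Of the 13 member probe sets, 11 were tested, and all 11 passed the filter on dim probe sets in each group's own mean. A probe set was called at a Benjamini-Hochberg adjusted p under 0.05 in limma's moderated test over all tested probe sets. Of the 11, 0 were called and 1 had an unadjusted p under 0.05, where 0.0268% and 13.0% of all tested probe sets did. Because the members were chosen with this contrast known, these counts only describe them. The groups did not overlap for 5 of the 11 (45.5%), against 45.8% of all tested probe sets. Of the 5, 4 were higher in PhIP (19.8% of all) and 1 was lower (26.0% of all). The 9 base excision repair members, each by its brightest probe set, had a median log2 fold change of 0.09, against −0.03 over all tested probe sets. Their 10 tested probe sets ran between −0.13 and 0.69, and without Neil1 the highest was 0.28. Mgmt stood 0.96 above that median. Since Mgmt was picked for its value, this gap is a description. Over all tested probe sets, 5 were called with all 4 arrays, 0 without PhIP 1 or PhIP 2, 2334 without control 1 and 462 without control 2. With an array left out its group is 1 array, which is assumed to vary as the pair of the other group does. These counts therefore rest on the spread of 1 pair.

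**Figure D2:**
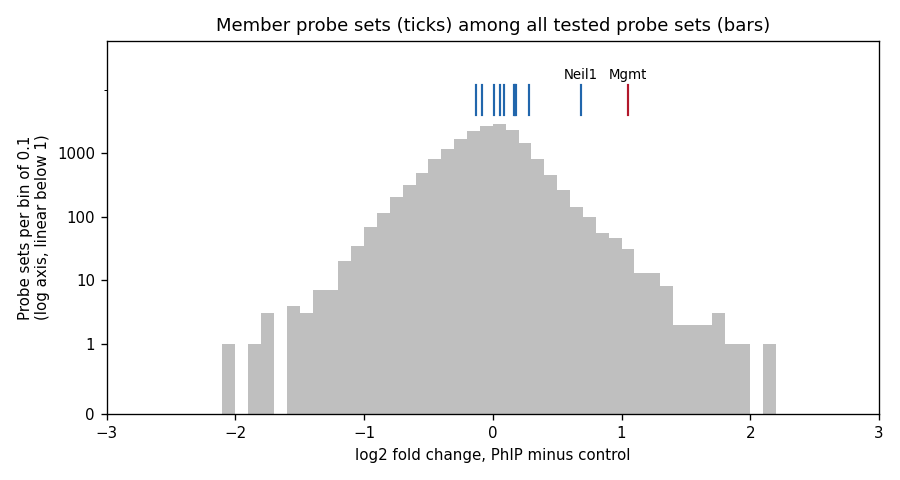
Number of tested probe sets (vertical axis, log scale, linear below 1) in bins of 0.1 of the log2 fold change of PhIP over control (horizontal axis). Ticks mark the 11 tested member probe sets, with Mgmt in red at 1.05 and the base excision repair members in blue, between −0.13 and 0.69.

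The rest of the pathway was read from lists of symbols that are not members, 28 of 36 of which were tested (Adprs and Adprhl2 are symbols of the same gene). These lists and those below were chosen with earlier results of these data known, so their counts and p-values only describe them. None of the 28 was called, against 0.0268% of all tested probe sets, while 8 were higher and 1 lower in PhIP at an unadjusted limma p under 0.05, against 5.36% and 7.61%. Their median log2 fold change was 0.23, and it was 0.15 without control 1 and 0.31 without control 2. With arrays centred on their medians it was 0.37, with 12 higher and 1 lower at an unadjusted limma p under 0.05. With arrays scaled to the hybridization controls it was 0.43, with 17 and 0. With all 4 arrays, Pcna alone was called with robust eBayes and in 3 other settings, and Fen1 was called with it after scaling to the hybridization controls. With the control group reduced to 1 array, Pcna was called without control 2, and Pcna, Fen1 and Pole4 without control 1.

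Long-patch repair, the branch that copies several bases and shares its enzymes with DNA replication, held most of the higher values. Of its 15 tested genes, 12 did not overlap and were higher in PhIP, against 19.8% of all tested probe sets, and 0 did so in the lower direction. The list median was 0.29, and 14 of the 15 were higher, which became 15, and the median 0.51, once arrays were scaled to the hybridization controls. Pcna, the sliding clamp of the polymerases, had 1172 and 1347 in PhIP and 705.2 and 547.4 in control (1.00 ± 0.13, limma adjusted p = 0.0534). Fen1, the nuclease that trims the displaced flap, had 162.3 and 181.7 in PhIP and 112.8 and 101.4 in control (0.64 ± 0.14, limma adjusted p = 0.154). In both genes each PhIP array lay above each control array. Pole2, a subunit of DNA polymerase epsilon, stood at 0.60 ± 0.17 (limma adjusted p = 0.233) and the clamp loader gene Rfc3 at 0.51 ± 0.15 (limma adjusted p = 0.244), both without overlap. Lig1, the ligase of this branch, had 137.2 and 167.5 in PhIP and 120.9 and 140.4 in control (0.20 ± 0.16), with overlap. It was 0.07 without PhIP 2 and 0.34 without PhIP 1. Its other probe set had 72.4 and 57.8 in PhIP and 44.1 and 54.2 in control (0.34 ± 0.19), without overlap. Probe sets of the clamp loader gene Rfc1, chosen after its values were seen, differed in sign, at 0.35 ± 0.12 in the brightest and −0.08 ± 0.22 in another.

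The genes nearer to the short-patch members were mixed. In the list of single-strand break genes, 7 of 11 tested were higher and 4 lower, with a median of 0.16. The median was 0.09 without control 1, 0.29 with arrays centred on their medians and 0.38 with arrays scaled to the hybridization controls. Lig3, the ligase that works with Xrcc1, had 416.5 and 410.5 in PhIP and 401.7 and 340.8 in control (0.16 ± 0.12, limma adjusted p = 0.605). It was 0.04 without control 2 and 0.27 without control 1. The dimmer Lig3 probe set had 86.5 and 85.3 in PhIP and 95.3 and 53.9 in control (0.23 ± 0.24), with overlap. Apex2, a weaker relative of Apex1, had 39 and 35.6 in PhIP and 58.8 and 59.9 in control (−0.55 ± 0.18, limma adjusted p = 0.281), with both PhIP arrays below both control arrays. Hmgb1, a chromatin protein, stood at 0.27 ± 0.10, Adprs, a hydrolase that removes ADP-ribose, at 0.31 ± 0.12 and Aplf, an end-joining factor, at −0.33 ± 0.19. Of the other glycosylases only Tdg and Mutyh were tested. Tdg, which removes thymine and uracil paired with guanine, stood at 0.03 ± 0.14. Mutyh, which removes adenine paired with 8-oxoguanine, had 15.4 and 19.5 in PhIP and 32.6 and 22.9 in control (−0.45 ± 0.25, limma adjusted p = 0.486). It was −0.27 without control 1 and −0.64 without control 2.

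**Figure D3:**
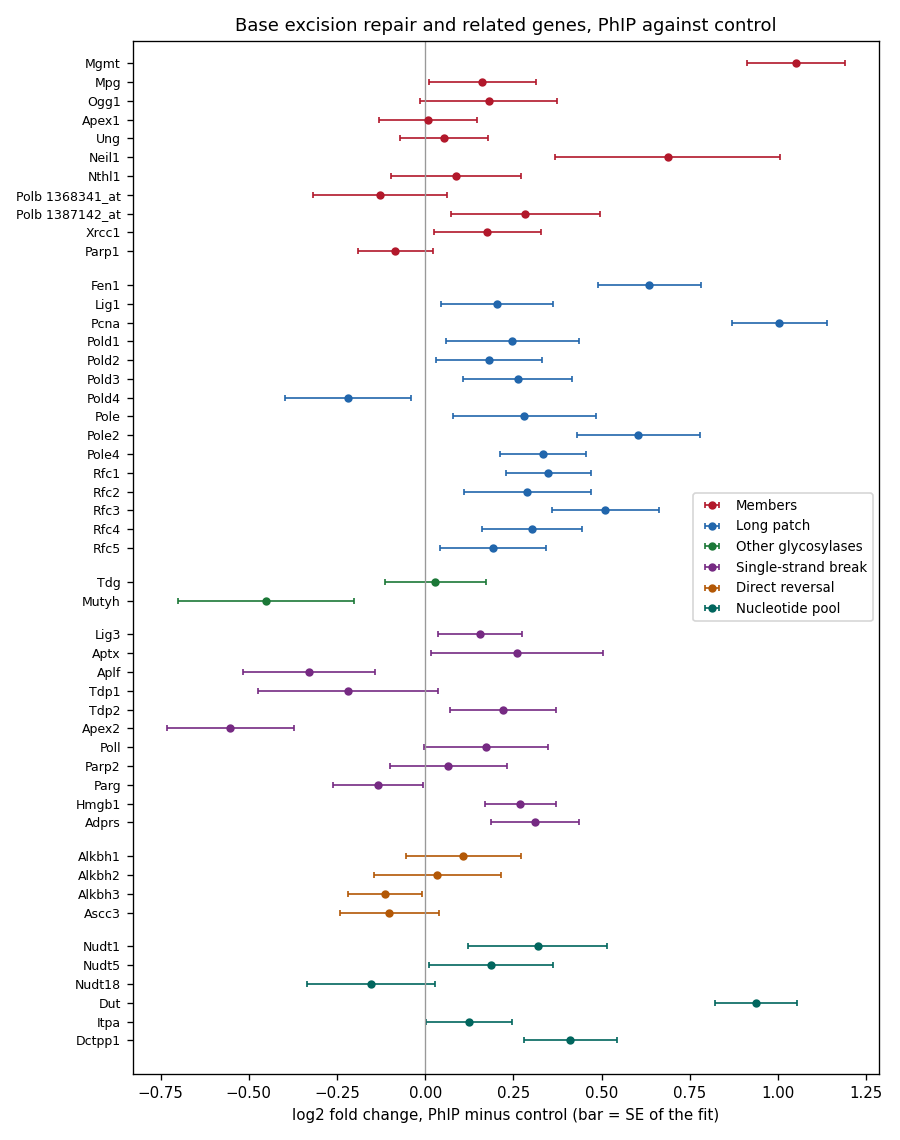
Log2 fold change of PhIP over control (horizontal axis, bars are the SE of the limma fit on 2 arrays a group) for the tested members (red, top) and for the related genes by role, each related gene by its brightest probe set. Mgmt stands at 1.05, the other members between −0.13 and 0.69, and most long-patch genes right of 0, with Pcna at 1.00.

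Mgmt is not the only enzyme that reverses alkylation without cutting the strand. The demethylases Alkbh2 and Alkbh3, which act on methylated adenine and cytosine, were measured beside it. Alkbh2 had 101.2 and 99.9 in PhIP and 83.5 and 114.6 in control (0.03 ± 0.18, limma adjusted p = 0.948), with the PhIP arrays between the control arrays. Alkbh3 had 388.9 and 417.8 in PhIP and 438.8 and 434.8 in control (−0.11 ± 0.10, limma adjusted p = 0.665), and its sign turned with arrays scaled to the hybridization controls (0.11) or centred on their medians (0.02). It was −0.06 without PhIP 1 and −0.16 without PhIP 2. Alkbh1 stood at 0.11 ± 0.16, and Ascc3, a helicase that works with Alkbh3, at −0.10 ± 0.14 (−0.30 ± 0.19 in a dimmer probe set). The median of these 4 genes was −0.03, with 2 higher and 2 lower, and its sign turned with arrays centred on their medians (0.10) or scaled to the hybridization controls (0.19), each with all 4 higher.

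Enzymes that clear damaged or unwanted nucleotides before they are built into DNA were 6 tested genes with a median of 0.25. The median was 0.15 without control 1, 0.39 without control 2 or with arrays centred on their medians, and 0.46 with arrays scaled to the hybridization controls. Dut, which destroys dUTP and so limits the uracil that Ung has to remove, had 594.3 and 639.2 in PhIP and 341.2 and 294.2 in control (0.94 ± 0.12, limma adjusted p = 0.0517). Its dim second probe set stood at 0.07 ± 0.26, and the mean of both probe sets gave 0.50 ± 0.14 (limma adjusted p = 0.187). Dctpp1, a dCTP pyrophosphatase, stood at 0.41 ± 0.13 (limma adjusted p = 0.273), without overlap. Nudt1, which destroys 8-oxo-dGTP, had 56.7 and 72.3 in PhIP and 44.7 and 54.5 in control (0.32 ± 0.20), with 0.17 without PhIP 2 and 0.47 without PhIP 1. Nudt5, a hydrolase of the same family, stood at 0.19 ± 0.18, with 0.03 without control 1 and 0.34 without control 2. Of the 10 tested direct reversal and nucleotide pool genes, 0 were called, against 0.0268% of all tested probe sets, and 2 were higher at an unadjusted limma p under 0.05, against 5.36%. Dut was called with robust eBayes and in 4 other settings with all 4 arrays, and without control 1 or control 2, where the control group was 1 array.

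The genes whose pattern over the 4 arrays came closest to that of Mgmt were found by the Euclidean distance between log2 values centred on each gene's own mean. Nearest was Pvt1, a long noncoding RNA gene, at a distance of 0.081. It had 54.9 and 52.9 in PhIP and was dim in control, at 18.2 and 25. Its log2 fold change was 1.02, against 1.05 for Mgmt. With no constant added to the signal, these values were 1.34 and 1.12. Next were Uhrf1, which helps maintain DNA methylation after replication (0.133), Mep1b, a metalloprotease subunit (0.137), Gins1, a subunit of the replicative helicase (0.153), and Ube2t, a ubiquitin-conjugating enzyme of the Fanconi pathway (0.169). Uhrf1 had 148.3 and 153.8 in PhIP and 63.2 and 67.3 in control, and Mep1b had 648.7 and 589.3 in PhIP and 302.2 and 314.2 in control. The distance rests on 4 arrays, and any gene with a like difference between the groups comes near. Among the members, Neil1 lay closest to Mgmt, at 0.632, and the brighter Polb probe set farthest, at 1.26.

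**Figure D4:**
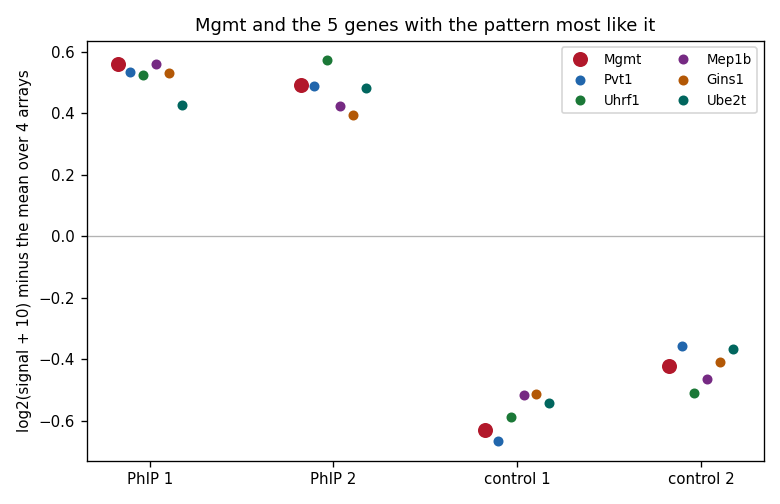
Log2(signal + 10) minus each gene's mean over the 4 arrays (vertical axis) on PhIP 1, PhIP 2, control 1 and control 2 (horizontal axis) for Mgmt (large red points) and the 5 genes at the smallest distance from it. All 6 genes lie above 0 on the PhIP arrays and below 0 on the control arrays.

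Other gene groups moved with Mgmt, and their part in its value was not tested. Genes of S phase and mitosis, 18 of 20 on the array and all tested, were all higher in PhIP, with a median log2 fold change of 0.71. Their signals summed to 2911 and 3228 in PhIP and to 1876 and 1795 in control. Mki67, the proliferation marker, stood at 0.71 ± 0.13. Of 24 listed symbols of p53 targets (Tp53inp1 and Trp53inp1 are symbols of the same gene), 15 were tested, 12 higher and 3 lower, with a median of 0.35 (0.54 without control 1), and Cdkn1a and Ccng1 stood at 1.59 ± 0.17 and 0.75 ± 0.09. Smooth muscle markers, 10 of 10 on the array, summed to 4197 and 4149 in PhIP and to 6893 and 6930 in control. Fibroblast markers, 8 of 8, summed to 7329 and 7344 in PhIP and to 12338 and 9671 in control. White blood cell markers, 6 of 7, summed to 6659 and 6605 in PhIP and to 5367 and 5248 in control, and basal epithelial markers, 4 of 5 symbols (Tp63 and Trp63 are symbols of the same gene), to 812 and 907 in PhIP and to 919 and 889 in control. Endothelial markers, 5 of 6, summed to 158 and 151 in PhIP and to 225.2 and 248.7 in control. Skeletal muscle markers, 5 of 6, summed to 496 and 416 in PhIP and to 904 and 1437.5 in control. Adipocyte markers, 4 of 4, summed to 79.8 and 146 in PhIP and to 286 and 192 in control, and red blood cell markers, 2 of 2, to 1301 and 853 in PhIP and to 1692 and 2451.5 in control. The sums of smooth muscle, fibroblast, endothelial, skeletal muscle, adipocyte and red blood cell markers were thus lower on both PhIP arrays than on both control arrays. The sum of white blood cell markers was higher on both PhIP arrays, while of its 5 tested markers 3 were higher and 2 lower. The sum of luminal epithelial markers, given with the array comparison, was also higher on both PhIP arrays. Of its 10 tested markers, 8 were higher and 2 lower. In none of these lists was a marker at a signal of 0 on any array.

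**Figure D5:**
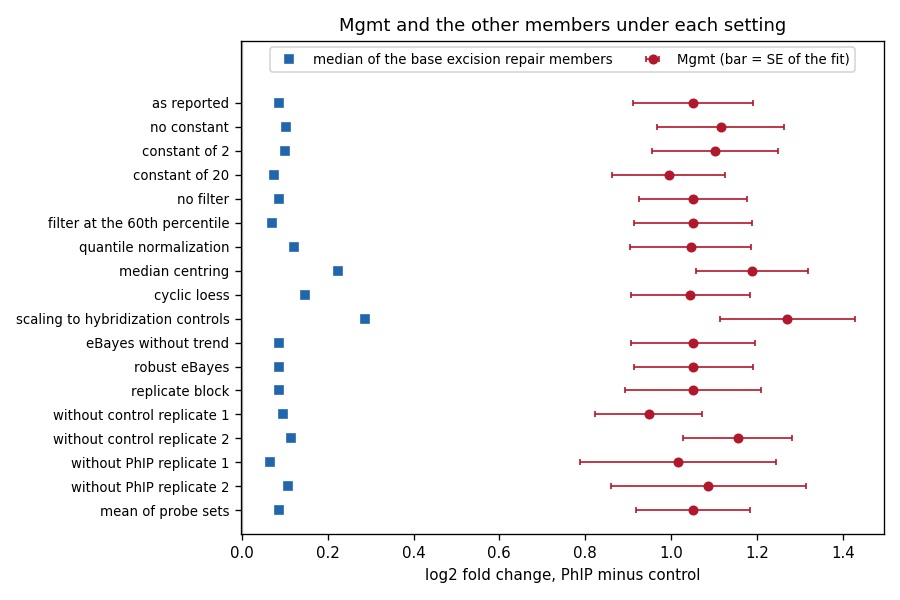
Log2 fold change of PhIP over control (horizontal axis) for Mgmt (red points, bars are the SE of the fit) and the median of the 9 base excision repair members (blue squares), as reported and under each other setting (rows). Mgmt lies between 0.95 and 1.27 in every row shown, and the median between 0.066 and 0.29.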

How the data were processed

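RNA of 4 pools of rat ventral prostate was labelled with biotin and hybridised to a rat Affymetrix array, per the labels' protocols. The deposited values are MAS5 intensities on a linear scale, with the software named, without a version, per the submitters' processing notes. Each array gave 1 value a probe set. The 2%-trimmed mean was the same on every array (100.0), so the authors had scaled the arrays to it. Precision is limited by the number of arrays, and detection calls were not used. Nothing in the labels tells which rats went into which pool, so p-values measure the spread between pools.

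The 57 manufacturer control probe sets were left out of 31099. Symbols came from the platform annotation: 20826 probe sets carried 1 symbol, 436 several and 9780 none, and all 10 member Entrez identifiers matched the RefSeq table. Signals were taken as log2(signal + 10), which understates the change of dim genes. The 18625 probe sets whose mean log2 value lay above the 40th percentile (24.3 on the scale of signal + 10) were fitted in limma 3.58.1 under R 4.3.3 with lmFit and eBayes, the prior variance following mean intensity. The test was two-sided and had 2 residual and 5.67 prior degrees of freedom, and p-values were adjusted by Benjamini-Hochberg to a threshold of 0.05. Of several probe sets of a gene, the one with the highest mean stood for it in lists. Plots used Python 3.11.15 and matplotlib 3.10.9, and the fit was tested on simulated data.

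The members and lists were chosen with earlier results of these data known. The rule for naming other genes took, in each of 5 role lists, the 4 largest moderated statistics, a fixed set (of which Neil3 and Trp53 were not analysed here) and the 5 patterns nearest to Mgmt. Alternatives were other constants, filters, normalizations and variance models, the replicate number as a block, averaging the probe sets of a gene, and leaving out each array.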

Additional observations from a re-analysis of the deposited data

How the results depend on the processing

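Mgmt kept its direction in all 17 alternatives, which only describes it, since it was picked for its difference in these arrays. With both PhIP arrays above both control arrays, leaving out an array could not turn its sign. The other filters and variance models, the replicate block and the mean of its only probe set cannot change its log2 fold change, which stayed at 1.05. The Mgmt value was 1.27 with arrays scaled to the hybridization controls and 1.19 with arrays centred on their medians, and 0.95 to 1.16 when each array was left out. The median of the base excision repair members was 0.10 with no constant or a constant of 2, 0.075 with a constant of 20, 0.071 with the filter at the 60th percentile (without Neil1), 0.12 after quantile normalization, 0.22 after median centring, 0.15 after cyclic loess and 0.29 after scaling to the hybridization controls, and 0.066 to 0.11 when each array was left out. The number of probe sets called in all was 22 with a constant of 20, 0 with no filter, 44 with the filter at the 60th percentile, 0 after quantile normalization or median centring, 3 after cyclic loess, 164 after scaling to the hybridization controls, 0 with eBayes without trend, 52 with robust eBayes and 35 with the replicate block, and 0 to 2334 when each array was left out, which leaves 1 group with a lone array assumed to vary like the other group. Of the other base excision repair genes, 2 were called after scaling to the hybridization controls, 1 with the filter at the 60th percentile, robust eBayes, the replicate block or the mean of probe sets, and 0 to 3 when each array was left out. Of the direct reversal and nucleotide pool genes, 1 was called with a constant of 20, the filter at the 60th percentile, scaling to the hybridization controls, robust eBayes or the replicate block, and 0 to 1 when each array was left out. With the replicate block, Pcna (adjusted p = 0.0398) and Dut (adjusted p = 0.0405) passed limma's test. Over all the alternatives, limma's adjusted p ranged from 2.62e-05 to 0.630 for Pcna and from 6.52e-05 to 0.630 for Dut. The replicate numbers are not stated to pair the pools, and the deviations of same-numbered arrays correlated at −0.056. With an array left out, signs turned for Tdg (from −0.056 to 0.11), Ascc3 (from −0.25 to 0.045), Alkbh1 (from −0.090 to 0.31) and Alkbh2 (from −0.17 to 0.24). Among the members, signs turned in this way for Nthl1, Apex1 and the brighter Polb probe set, as given above. They also turned for Alkbh3 and Ascc3 with median centring (0.023 and 0.034) and with scaling to the hybridization controls (0.11 and 0.12). The cause was not tested.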
